A study of Mus musculus with 96 samples.

Results

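The transcripts of 10 genes of the glutathione system were followed along the mouse nephron: Gclc and Gclm, which encode the catalytic and the modifier subunit of glutamate-cysteine ligase, Ggt1, which encodes gamma-glutamyltransferase 1, and the glutathione peroxidase genes Gpx1, Gpx2, Gpx3, Gpx4, Gpx6, Gpx7 and Gpx8. The members were taken by gene symbol, and each of the 10 symbols stood in exactly 1 row of a table of 54532 genes. Their Ensembl identifiers are ENSMUSG00000063856 for Gpx1, ENSMUSG00000042808 for Gpx2, ENSMUSG00000018339 for Gpx3, ENSMUSG00000075706 for Gpx4, ENSMUSG00000004341 for Gpx6, ENSMUSG00000028597 for Gpx7, ENSMUSG00000021760 for Gpx8, ENSMUSG00000032350 for Gclc, ENSMUSG00000028124 for Gclm and ENSMUSG00000006345 for Ggt1. RNA had been sequenced from 93 samples dissected by hand under a microscope from kidneys of male C57BL/6 mice aged 6 to 8 weeks. The mice were on normal chow and water, with no treatment or genetic change named for any group. They are counted as 53, the number of combinations of mouse number and segment. The sample titles do not show whether the same number in different segments is the same animal. The glomerulus (GL) and 14 tubule segments were compared. They were the first convoluted (PTS1), cortical straight (PTS2) and last straight (PTS3) parts of the proximal tubule, the descending thin limb of short loops (DTL1) and of long loops in the outer (DTL2) and inner medulla (DTL3), the thin ascending limb (ATL), the thick ascending limb in medulla (MTAL) and cortex (CTAL), the convoluted and connecting parts of the distal tubule (DCT and CNT), then the collecting ducts: cortical (CCD), outer medullary (OMCD) and inner medullary (IMCD). Each group held 3 mice, except PTS2, CTAL and CCD with 5 and ATL and OMCD with 4, and pieces from 1 mouse and segment were averaged. Values are listed in the order of the mouse numbers, except that PTS2 values begin with a mouse whose column names mouse 2 and piece b, a combination that no PTS2 sample title has, and go on with mice 1, 3, 4 and 5. Abundance is given as TPM, the length-corrected share of a transcript in its sample, so levels of different genes can be set side by side; the unit keeps no record of sequencing depth. A dissected piece holds every cell type of its wall, so in these bulk samples fewer cells of a type and less RNA per cell cannot be told apart.

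Glutathione, the tripeptide of glutamate, cysteine and glycine, is made in 2 steps. Glutamate-cysteine ligase joins the first pair of amino acids and sets the pace of the pathway; the Gclc protein carries the active site and the Gclm protein makes it more efficient. Glutathione synthetase (Gss) then adds glycine. Gamma-glutamyltransferase 1 sits on the outer face of the brush border of proximal tubule cells and begins the breakdown of glutathione in the urine, so that its amino acids can be taken up again. Glutathione peroxidases reduce peroxides, most of them with glutathione as the electron donor, and glutathione reductase (Gsr) returns the oxidised product. Gpx1 is the common cytosolic enzyme, Gpx3 is secreted and circulates in plasma, Gpx4 reduces lipid peroxides inside membranes, Gpx2 is best known from the gut and Gpx6 from the olfactory epithelium, and Gpx7 and Gpx8 are proteins of the endoplasmic reticulum.

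The 7 peroxidases differ in the residue that does the chemistry, and the coding sequence shows it. Windows of 33 bases around the catalytic codon were read from the coding sequences of the GENCODE M21 annotation (GRCm38), and are shown because members of both kinds rank first in some part of the tubule. The capitals mark the codon. TGA is the stop triplet read as selenocysteine in selenoproteins, and TGT and TGC encode cysteine. The codon was found as the one TGA inside the frame in Gpx1, Gpx2, Gpx3 and Gpx4, and by alignment with Gpx1 in the others.
Gpx1 (codon 47 of 201): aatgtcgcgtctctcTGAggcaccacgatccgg
Gpx2 (codon 40 of 190): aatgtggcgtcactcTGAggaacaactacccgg
Gpx3 (codon 73 of 226): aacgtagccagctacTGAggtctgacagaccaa
Gpx4 (codon 129 of 253, longest coding form): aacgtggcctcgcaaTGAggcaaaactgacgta
Gpx6 (codon 73 of 221): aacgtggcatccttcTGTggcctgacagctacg
Gpx7 (codon 56 of 186): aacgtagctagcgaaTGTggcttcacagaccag
Gpx8 (codon 79 of 209): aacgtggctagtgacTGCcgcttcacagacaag
Gpx6, Gpx7 and Gpx8 therefore carry a cysteine codon where the other 4 carry the selenocysteine codon. Transcripts of Gpx1, Gpx3, Gpx6, Gpx7, Gpx8, Gclc and Ggt1 shared no stretch of 50 bases with another annotated gene (0 shared stretches). Gpx4 shared 34.737% of its 50-base stretches, all of them with the pseudogene Gpx4-ps2, and Gpx2 shared 6.029% and Gclm 4.583%, so the split of reads for these 3 genes is uncertain. Gpx4-ps2 was listed at 12.3% to 15.1% of the Gpx4 level in every one of the 15 groups.

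Marker genes set the samples in place. The summed level of 10 proximal tubule genes lay between 32952 and 98116 TPM in every PTS1, PTS2 and PTS3 mouse, the 4 podocyte genes summed to 7428 to 8575 TPM in GL, the 4 thick limb genes to 22552 to 31088 TPM in MTAL and 41589 to 47069 TPM in CTAL, and the 2 distal convoluted tubule genes to 5863 to 6398 TPM in DCT. Some groups carried markers of neighbours. Proximal genes summed to 1755 to 5789 TPM in DTL1 and 28.5 to 495 TPM in DCT, thick limb genes to 3259.8 to 4073 TPM in DCT, and the 5 endothelial genes to 2764 to 3652 TPM in DTL1 beside 2993 to 3058 TPM in GL. The 6 connecting and principal cell genes, among them Calb1, which distal convoluted cells are also known to express, summed to 5964 to 9772 TPM in DCT against 50.2 to 92.8 TPM in CTAL, and the 5 intercalated cell genes to 782 to 848 against 8.23 to 15.3 TPM. Their part in the differences of Gclc and Gpx3 between CTAL and DCT was not tested. The number of genes at 1 TPM or more was 26044 to 29454 in DTL1 and 23597 to 29280 in GL, against 11474 to 11720 in PTS2. The part of this number in the differences of low genes between these groups was not tested.

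The first enzyme of glutathione synthesis was most abundant in the straight proximal tubule and scarce in the convoluted part just before it. Gclc was listed at 760, 1386, 581, 1281 and 550.1 TPM in the 5 PTS2 mice, 489, 477 and 369 TPM in PTS3 and 42.7, 39.2 and 43 TPM in PTS1. Every PTS2 mouse stood above every PTS3 mouse, and every PTS3 mouse above all PTS1 mice. The mean was 21.9-fold higher in PTS2 than in PTS1 (log2 difference -4.29, SE 0.26, limma adjusted p = 7.78e-18). The 5 PTS2 mice did not form 1 level: mice 1 and 4 were the high pair and mice 3 and 5 the low pair, and Gclm in the same mice spread only over 1184 to 1357 TPM. The PTS2 minus PTS3 difference of Gclc stayed under 1 log2 unit (log2 difference 0.92, SE 0.26, limma adjusted p = 0.0121).

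Gclc had a second region of high level, in the distal nephron. Its level was 410.2, 334 and 470.4 TPM in CNT, 378, 331 and 309 TPM in DCT and 358, 321, 310.3, 335 and 368 TPM in CCD. The CNT values overlapped those of PTS3, DCT and CCD, so from rank to rank these neighbours do not differ beyond their spread; PTS3 and CCD, at the ends, do not overlap. Gclc was 2.74-fold higher in DCT than in CTAL (log2 difference -1.46, SE 0.26, limma adjusted p = 6.04e-05) and 2.59-fold higher in CTAL than in MTAL (log2 difference -1.35, SE 0.26, limma adjusted p = 0.000368). Further along, OMCD held 174 to 216 TPM and IMCD 85.4 to 139 TPM. The lowest levels were those of ATL, 27.3, 28.8, 27.8 and 16.3 TPM, with GL, PTS1, MTAL and DTL3 between 32.5 and 55.2 TPM. DTL1 held 61.4 to 138 TPM and CTAL 96.1 to 144 TPM. DTL2 was uneven, at 159, 92.8 and 320.4 TPM. Gclc was higher in PTS3 than in DTL2 (log2 difference 1.39, SE 0.30, limma adjusted p = 9.88e-05); with DTL2 mouse 2 left out the difference was 0.97.

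Gclm, the modifier subunit, peaked in the same segments, but no difference between neighbours from MTAL to OMCD was called for it. It was listed at 1292, 1342, 1251, 1357 and 1184 TPM in PTS2, 997, 932 and 918 TPM in PTS3 and 171, 183 and 194 TPM in PTS1, with no overlap between these groups. The PTS1 minus PTS2 difference of Gclm was called (log2 difference -2.80, SE 0.11, limma adjusted p = 1.95e-24). The next levels were those of IMCD, 221, 328 and 280.4 TPM, and DTL1, 251, 208 and 239.7 TPM. IMCD was 3.97-fold above OMCD (log2 difference -1.96, SE 0.12, limma adjusted p = 3.35e-18). In DCT, CNT, CCD and OMCD, Gclm stayed between 64.7 and 90.8 TPM, and in CTAL it was 60.4 to 74.2 TPM. MTAL mice held 50.7 to 64.3 TPM, and the CNT and CCD mice lay above every MTAL and CTAL mouse. The CTAL minus DCT difference of Gclm did not pass (log2 difference -0.13, SE 0.11, limma adjusted p = 1).

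The ratio of the subunit transcripts differed between the proximal and the distal segments. Gclc over Gclm was 0.229 ± 0.019 (n = 3) in PTS1, 0.468 ± 0.058 (n = 3) in PTS3 and 0.699 ± 0.271 (n = 5) in PTS2, where mouse 1 alone reached a ratio above 1. It was 1.85 ± 0.412 (n = 5) in CTAL, 4.59 ± 0.357 (n = 3) in DCT and 4.64 ± 0.656 (n = 3) in CNT. Along the collecting duct it was 3.87 ± 0.302 (n = 5) in CCD, 2.69 ± 0.312 (n = 4) in OMCD and 0.419 ± 0.029 (n = 3) in IMCD. Each mouse of DCT, CNT, CCD and OMCD had at least 2.31 Gclc transcripts per Gclm transcript, and no mouse of GL, PTS1, PTS3, DTL1, DTL3, ATL, MTAL or IMCD had more than 0.914. DTL2 was at 1.92 ± 0.822 (n = 3), with mouse 3 at 2.86, inside the OMCD range of 2.31 to 3.07. These ratios are descriptions without a test of their own.

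The partner enzymes of the cycle were read beside the members. Gss, which completes glutathione, was listed at 1729.7, 1572, 1702, 1789 and 1603 TPM in PTS2 and 1608, 1384 and 1565 TPM in PTS3, against 291, 274 and 258 TPM in PTS1 and 34.5 to 207 TPM in the 12 other groups. PTS2 and PTS3 overlapped, and both lay above all the rest. Gss was lower in PTS1 than in PTS2 (log2 difference -2.61, SE 0.13, limma adjusted p = 7.99e-21), as Gclc and Gclm were. Gsr, which recycles oxidised glutathione, was 319.7, 321, 275, 326 and 212 TPM in PTS2 and lower in PTS3 (log2 difference 1.58, SE 0.24, limma adjusted p = 2.32e-06). No Gsr mouse outside PTS2 exceeded 174.6 TPM, and IMCD, PTS1, ATL and PTS3, the next in rank, each overlapped their neighbour in that order, though PTS1 and PTS3 did not overlap each other.

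Ggt1 was highest in the straight proximal tubule. It was listed at 4010.5, 3850.1, 3982, 4562 and 3175 TPM in PTS2, 1650.2, 1225 and 1525 TPM in PTS3 and 171, 247 and 97.2 TPM in PTS1. No mouse of one of these groups overlapped another. The PTS2 mean was 22.8-fold that of PTS1 (log2 difference -4.61, SE 0.43, limma adjusted p = 4.08e-12). PTS2 also exceeded PTS3 (log2 difference 1.43, SE 0.43, limma adjusted p = 0.0162), but this call did not hold throughout. It was lost without PTS3 mouse 2, at a log2 difference of 1.3 and a limma adjusted p of 0.0985. It was also lost with a pseudocount of 0.1, where the log2 difference was still 1.43 but the SE 0.58 (limma adjusted p = 0.0981). With the replicate block it was lost at a log2 difference of 1.23. In DTL1 the level was 217, 115 and 162 TPM in mice 1, 3 and 5, whose proximal marker sums were 5789, 1755 and 3965 TPM. The order of the mice was the same in both, and the part of proximal RNA in the DTL1 level was not tested.

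A second stretch of high Ggt1 lay in the cortical thick limb. CTAL mice held 1209, 1054, 1134, 1296 and 1112 TPM, overlapping PTS3, whereas MTAL mice held 50.9, 69.8 and 11.3 TPM. The CTAL mean was 26.4-fold that of MTAL (log2 difference -5.09, SE 0.43, limma adjusted p = 1.98e-12), and leaving out 1 mouse at a time moved the difference between -5.54 and -4.33. The proximal marker sum of the CTAL mice was 145 to 547 TPM, and its part in their Ggt1 level was not tested. DCT followed with 305, 255 and 269.6 TPM. Beyond it the transcript dropped to 4.3, 0.84 and 2.38 TPM in CNT (log2 difference 6.42, SE 0.48, limma adjusted p = 1.81e-14). It was 3.75 to 11.9 TPM in CCD, 0.41 to 1.31 TPM in OMCD and 0.063 to 0.243 TPM in IMCD, and 0.7 to 2.45 TPM in GL. CCD was higher than OMCD (log2 difference 2.02, SE 0.39, limma adjusted p = 0.00015), though with a pseudocount of 5 the difference was 0.98. In CCD mice 1 to 5, Ggt1 was 3.75, 4.51, 9.53, 11.9 and 5.56 TPM beside proximal marker sums of 129, 175, 541, 626 and 196 TPM, the same order of the mice, and the proximal sums were 21.6 to 34.6 TPM in OMCD. In CNT mice 1 to 3 the proximal sums were 214, 25.1 and 31.6 TPM, again in the order of Ggt1. The part of proximal RNA in these levels was not tested.

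**Figure D1:**
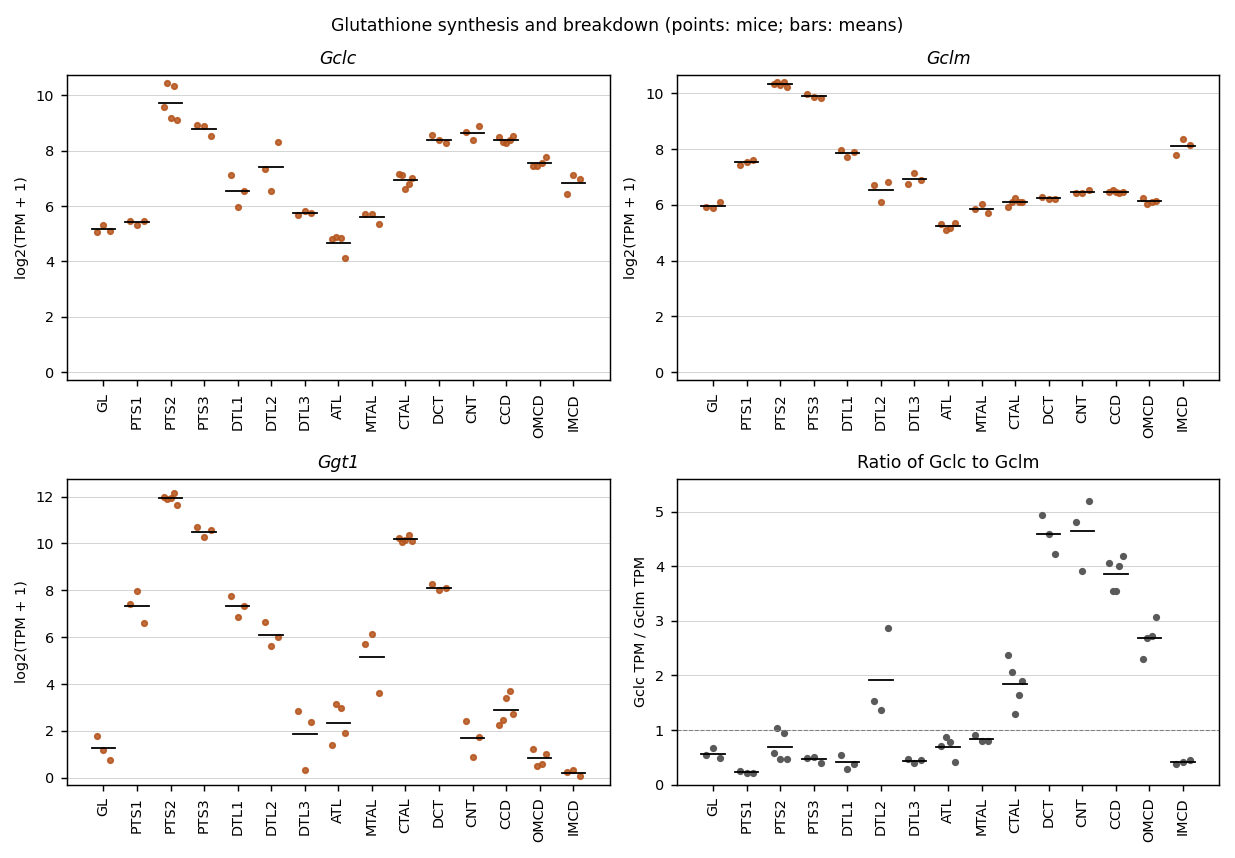
Gclc, Gclm and Ggt1 as log2(TPM + 1) in the 15 groups, and the ratio of Gclc to Gclm transcripts; points are mice and bars are means over 3 to 5 mice. Gclc and Gclm share their peak in PTS2 and PTS3, the ratio stands above 2.3 in every DCT, CNT, CCD and OMCD mouse, and Ggt1 is high in PTS2, PTS3 and CTAL.

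Among the peroxidases, Gpx3 reached by far the highest level. It was listed at 77474, 74429 and 100598 TPM in the 3 PTS1 mice, 6598, 7011, 9771, 6812 and 8538 TPM in PTS2 and 2434, 2519.5 and 2827 TPM in PTS3, and these groups did not overlap. In PTS1 this single transcript took 8.42% of all TPM. The PTS1 mean was 10.9-fold that of PTS2 (log2 difference 3.46, SE 0.55, limma adjusted p = 2.24e-06). The difference between PTS2 and PTS3 narrowly missed the threshold (log2 difference 1.56, SE 0.55, limma adjusted p = 0.0518), although every PTS2 mouse stood above every PTS3 mouse. The SE rests on an estimate of the spread shared by all 15 groups, among them groups with low and scattered Gpx3. Gpx3 ran opposite to Gclc, Gclm, Gss and Ggt1 between the first 2 proximal segments.

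Gpx3 had a second peak in the distal tubule. The DCT mice held 2298, 1034 and 999.9 TPM and the CNT mice 768, 387 and 618 TPM, whereas the CTAL mice held 46, 76.3, 32.9, 31.3 and 55.2 TPM. DCT was 29.9-fold above CTAL (log2 difference -4.77, SE 0.55, limma adjusted p = 3.61e-09). DCT mouse 1 stood above the others, and its 2 pieces were unlike: 1 piece held 1106 TPM of Gpx3 with 25.6 TPM of the proximal phosphate transporter Slc34a1, and the other 3491 TPM with 289.6 TPM. DCT mice 2 and 3 held 2.29 and 3.1 TPM of Slc34a1 beside 1034 and 999.9 TPM of Gpx3. Without DCT mouse 1 the CTAL minus DCT difference was -4.45 (SE 0.63, limma adjusted p = 6.94e-07). The DCT minus CNT difference was not called (log2 difference 1.14, SE 0.61, limma adjusted p = 0.356), though the 3 DCT mice lay above the 3 CNT mice.

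From CNT to OMCD Gpx3 was lower at each step. CCD held 78.8, 83.3, 118, 135 and 133 TPM and OMCD 7.38, 9.45, 4.12 and 3.94 TPM, and the groups did not overlap (log2 difference 4, SE 0.50, limma adjusted p = 5.56e-08). CNT exceeded CCD (log2 difference 2.42, SE 0.55, limma adjusted p = 0.00719), with the call lost without CNT mouse 1 (adjusted p = 0.09) and without CNT mouse 3 (adjusted p = 0.0629), and with a pseudocount of 0.1 (log2 difference 2.43, SE 0.66, adjusted p = 0.0563, all limma). The CNT mice had the same order in Gpx3 and in their proximal marker sums, whose part was not tested. IMCD was uneven, at 3.25, 29.4 and 31.2 TPM, beside endothelial marker sums of 21, 206 and 302 TPM in the same mice, whose part was not tested. Among the thin limbs, DTL1 held 176 to 221 TPM, DTL2 24.4 to 48.9 TPM, DTL3 9.75 to 69.8 TPM and ATL 16.8 to 52.8 TPM. MTAL was scattered, at 3.91, 27 and 0.465 TPM, and mouse 2, the highest, also had the highest proximal marker sum of the 3, 23.9 TPM against 3.04 and 3.28. Gpx3 was lower in MTAL than in CTAL (log2 difference -3.27, SE 0.55, limma adjusted p = 3.23e-05), and leaving out 1 mouse at a time moved this difference between -4.31 and -2.42. In CTAL mice 1 to 5, Gpx3 was 46, 76.3, 32.9, 31.3 and 55.2 TPM beside proximal marker sums of 351, 547, 145, 207 and 339 TPM. The part of proximal RNA in the low Gpx3 levels of MTAL and CTAL was not tested.

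Gpx1, the cytosolic selenoenzyme, was present in all 53 mice and was highest in the early proximal tubule. PTS1 mice held 6216, 6057 and 6755 TPM, PTS2 mice 3767, 4684, 4190, 4340.2 and 4029.6 TPM and PTS3 mice 1381, 1274 and 1352 TPM, with no overlap. The PTS2 mean was 3.15-fold that of PTS3 (log2 difference 1.64, SE 0.13, limma adjusted p = 1.53e-13), and the PTS1 minus PTS2 difference was under 1 log2 unit (log2 difference 0.60, SE 0.13, limma adjusted p = 0.000299). By group mean the end of the collecting duct ranked 3, before PTS3 at rank 4, with overlapping mice. IMCD mice held 1277, 1748 and 1482 TPM, within reach of PTS3, against 452, 421, 400 and 469.9 TPM in OMCD (log2 difference -1.77, SE 0.13, limma adjusted p = 8.23e-15). DTL3, the thin limb of the inner medulla, held 1069, 1107 and 937 TPM, and the ascending thin limb beside it only 441, 372, 212 and 254 TPM (log2 difference 1.75, SE 0.13, limma adjusted p = 1.94e-14). In the 8 remaining groups the means ran from 362 TPM in GL to 766 TPM in DTL1, and DCT, CNT, DTL2 and CTAL overlapped from one rank to the next.

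Gpx4, which protects membranes, had the flattest profile of the members present everywhere, 8.12-fold from the highest to the lowest group mean. Its highest group was PTS3, where that of Gpx1 was PTS1. PTS3 mice held 1648, 1444 and 1739.5 TPM, DTL2 mice 1249, 1345 and 1171 TPM, PTS2 mice 1189, 1141, 1259, 1265 and 1239 TPM and PTS1 mice 822, 871 and 955 TPM. PTS3 stood apart from the rest, whereas DTL2 and PTS2 overlapped. The short and the long descending limb differed: DTL1 mice held 472, 456 and 559.5 TPM (log2 difference -1.33, SE 0.17, limma adjusted p = 1.69e-08). Gpx4 was lowest in CCD, CNT and OMCD, where the 12 mice lay between 186 and 240.4 TPM. The ratio of Gpx1 to Gpx4 was 7.2 ± 0.321 (n = 3) in PTS1, 3.46 ± 0.375 (n = 5) in PTS2, 0.832 ± 0.053 (n = 3) in PTS3, 0.553 ± 0.034 (n = 3) in DTL2, 3.17 ± 0.125 (n = 3) in CNT and 4.28 ± 0.766 (n = 3) in IMCD.

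Gpx6, a member with the cysteine codon, was highest in the thick ascending limb. MTAL mice held 1398, 1402 and 1335 TPM, CTAL mice 755, 896, 829, 708 and 955 TPM and DCT mice 299.9, 128 and 199 TPM. The 3 groups did not overlap, and no mouse of the 12 other groups exceeded 5.04 TPM. MTAL was higher than ATL (log2 difference -9.46, SE 0.35, limma adjusted p = 1.24e-25), CTAL was higher than DCT (log2 difference 2.07, SE 0.34, limma adjusted p = 8.99e-06), and DCT was higher than CNT (log2 difference 5.43, SE 0.38, limma adjusted p = 2.12e-15). With a pseudocount of 0.1 the CTAL minus DCT call was lost through a wider SE (log2 difference 2.08, SE 0.79, limma adjusted p = 0.119). The MTAL minus CTAL difference was not called (log2 difference 0.74, SE 0.34, limma adjusted p = 0.271). In DCT mice 1, 2 and 3 the thick limb transporter Slc12a1 was listed at 72.3, 19.1 and 1.29 TPM, the thick limb gene Umod at 2173, 1360 and 1890.5 TPM, and the 4 thick limb genes summed to 4073, 3259.8 and 3730.2 TPM. The order of the mice was the same for Gpx6, Umod and the sum, and another for Slc12a1. The part of thick limb RNA in the DCT level was not tested. CNT, at 3.04 to 5.04 TPM, was called higher than CCD, at 0.23 to 0.935 TPM (log2 difference 1.59, SE 0.34, limma adjusted p = 0.00341), a call lost with pseudocounts of 0.1 and 5.

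Gpx8, also with the cysteine codon, was near 1 TPM or below in the proximal tubule and abundant everywhere else. It was listed at 0.73, 1.15 and 1.03 TPM in PTS1, 0.53, 0.93, 0.94, 0.44 and 0.46 TPM in PTS2 and 1.03, 0.675 and 0.7 TPM in PTS3. All 42 mice of the 12 other groups held at least 38.4 TPM, so the 2 sets of mice did not overlap. GL was highest at 323, 336 and 291 TPM, followed by DTL1 at 156, 197 and 223 TPM and CNT at 154, 169 and 160.1 TPM. The mean of the 3 proximal segments was lower than that of the 11 other tubule segments (log2 difference -6.00, SE 0.06, limma adjusted p = 3.14e-47), which held for every mouse left out in turn, between -6.02 and -5.97. At the boundary itself, PTS3 was lower than DTL2 (log2 difference -5.60, SE 0.15, limma adjusted p = 5.77e-31). From DCT to IMCD the level was even, between 111 and 169 TPM.

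Gpx7 and Gpx2 were the 2 scarce members. Gpx7, the close relative of Gpx8, was listed at 34, 25.6 and 26.9 TPM in GL, 16.5, 16.2 and 11.2 TPM in DTL1 and 6.48, 4.26, 7.55 and 6.68 TPM in OMCD, and no mouse elsewhere exceeded 4.16 TPM. These 3 groups did not overlap with each other. OMCD was higher than IMCD, at 0.163 to 0.897 TPM (log2 difference 2.30, SE 0.26, limma adjusted p = 5.82e-10). GL and DTL1 also had the highest medians of the number of genes at 1 TPM or more. Gpx2 reached 1 TPM in 7 of 53 mice: 3 of DTL1, at 2.37, 2.21 and 9.29 TPM, 2 of GL, at 2.1 and 1.85 TPM, and 1 each of DTL3 and ATL. It was listed at 0 in every PTS3, MTAL and CTAL mouse. The relative Gpx5, which is not one of the 10 genes, did not exceed a mean of 6.69 TPM, in DTL1.

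**Figure D2:**
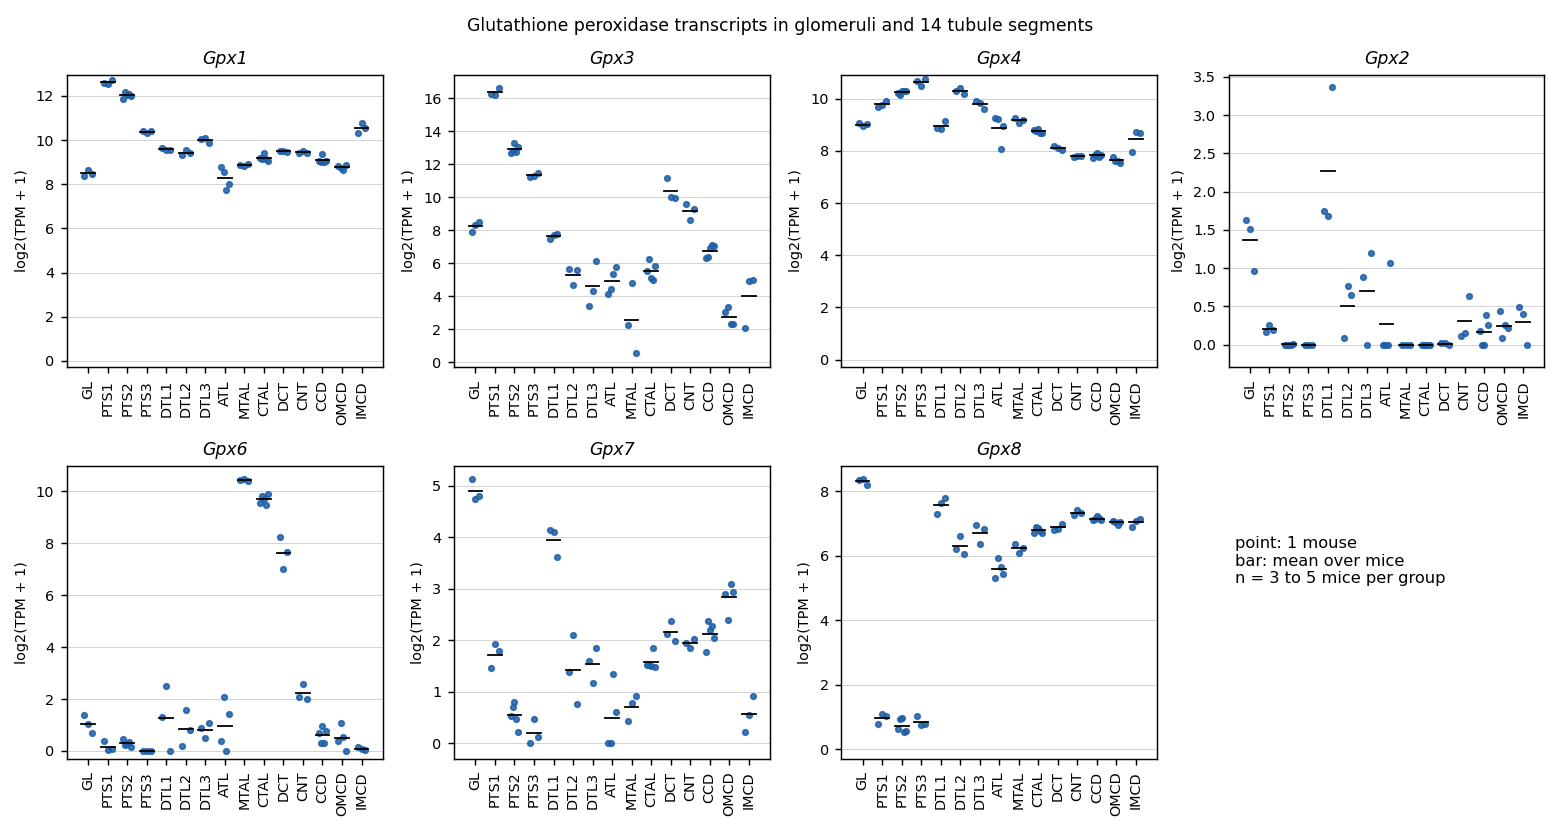
Peroxidase transcripts as log2(TPM + 1) in the 15 groups, each panel with its own scale; points are mice and bars are means over 3 to 5 mice. Gpx3 is highest in PTS1 and has a second peak in DCT and CNT, Gpx6 stands out in MTAL, CTAL and DCT, and Gpx8 is near 1 TPM in PTS1, PTS2 and PTS3 and at 38.4 TPM or more in every other mouse.

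Set together, the 7 transcripts varied in make-up along the nephron, which is described here without a test. Their sum was 91396 TPM in PTS1, or 9.14% of all TPM, and 777 TPM in OMCD, the lowest group. Gpx3 made up 92 ± 0.758% (SD, n = 3) of it in PTS1, 58.5 ± 4.3% (n = 5) in PTS2, 46.8 ± 1.96% (n = 3) in PTS3 and 50 ± 9.89% (n = 3) in DCT. Gpx4 led in DTL2 with 60.6 ± 1.24% (n = 3), in ATL with 54.3 ± 5.26% (n = 4) and in GL with 33.8 ± 2.51% (n = 3). Gpx6 led in MTAL with 54.9 ± 1.32% (n = 3) and in CTAL with 41.2 ± 3.28% (n = 5). In CNT the mean share of Gpx1 was 42 ± 5.55% and that of Gpx3 34.6 ± 8.4% (n = 3), with overlapping mice and Gpx3 ahead in mouse 1. Gpx1 led in DTL1 and DTL3 and along the collecting duct, where its share was 53.3 ± 2.56% (n = 5) in CCD, 56 ± 1.9% (n = 4) in OMCD and 74.7 ± 2.87% (n = 3) in IMCD. In the thick limb the leading peroxidase transcript was thus one with a cysteine codon, and in the 13 other groups one with a selenocysteine codon.

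**Figure D3:**
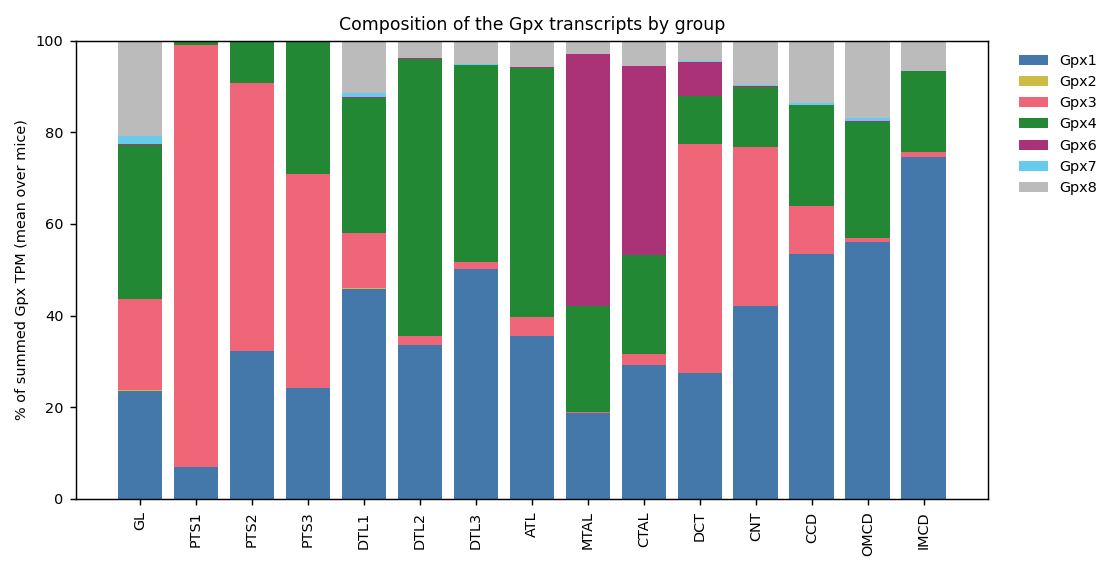
Share of each Gpx transcript in the summed Gpx TPM of the 15 groups, as means over 3 to 5 mice; each bar adds to 100%. Gpx3 fills 92% of the bar in PTS1, Gpx6 is the largest part in MTAL and CTAL, and Gpx1 is the largest part in CCD, OMCD and IMCD.

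The question whether the glutathione genes mark the proximal tubule was put to 1 test over all genes, the mean of PTS1, PTS2 and PTS3 minus the mean of the 11 other tubule segments. A gene was called at an adjusted p under 0.05 and a difference of at least 1 log2 unit on the log2(TPM + 1) scale, which understates the change of low genes. Called higher were 5 members, Gpx3 by 7.82, Ggt1 by 5.69, Gclm by 2.71, Gpx1 by 2.34 and Gpx4 by 1.53, where 4.02% of the 33793 genes tested were called higher. Gpx3 and Gpx1 were highest in PTS1, but the others were not high in every proximal segment. In PTS1, Gclm, at 171 to 194 TPM, lay below every DTL1 and IMCD mouse. Ggt1, at 97.2 to 247 TPM, lay there below every CTAL and DCT mouse, and Gpx4, at 822 to 955 TPM, below every DTL2 mouse. Gpx8, at -6.00, and Gpx6, at -3.02, were the 2 members called lower, where 19.8% of genes were. For Gpx6, 3 of the 11 other segments stood high, MTAL, CTAL and DCT; the means of the other 8 were 0.068 to 3.77 TPM, and PTS3 minus DTL2 was not called (log2 difference -0.82, SE 0.38, limma adjusted p = 0.0591). Gclc stayed just under 1 (log2 difference 0.99, SE 0.13, limma adjusted p = 3.16e-09), and Gpx7 and Gpx2 were not called either. The median difference of the 10 members was 1.26, against -0.41 over all genes tested. The sizes depended on the scaling. Median ratio factors were 0.535 to 0.638 in the proximal mice and 1.31 to 1.54 in DTL1, DTL2 and DTL3; with them the differences were 8.74 for Gpx3, 6.55 for Ggt1, 3.63 for Gclm, 3.26 for Gpx1 and 2.45 for Gpx4, with 8 members called. Quantile normalization gave 7.38, 5.73, 2.67, 1.85 and 1.17 for the same genes, also with 8 called. The median of all genes moved by 0.22 and 0.38 under these scalings, and the background became 7.92% higher and 8.18% lower with the first and 7% and 6.29% with the second. All 10 members also differed among the 15 groups by limma's moderated F-test, where 93.9% of all genes did, with F-test adjusted p values from 4.11e-43 for Gpx8 to 4.44e-08 for Gpx2.

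The glomerulus, where blood is filtered, was set against the mean of the 14 tubule segments. Gpx7 (log2 difference 3.35, SE 0.20, limma adjusted p = 6.88e-19) and Gpx8 (log2 difference 2.81, SE 0.11, limma adjusted p = 1.47e-25) were the 2 members higher in GL, where 31.6% of all genes were. Lower were 5 members, where 3.94% of all genes were: Ggt1 by a log2 difference of -4.30, Gclc of -2.03, Gpx6 of -1.50, Gpx1 of -1.35 and Gclm of -1.15. The Gpx6 call was lost with a pseudocount of 0.1 (log2 difference -0.99, limma adjusted p = 0.158), and GL, at 0.6 to 1.6 TPM, ranked 7 of the 15 groups for Gpx6, below MTAL, CTAL, DCT, CNT, DTL1 and ATL. Gpx4, Gpx3 and Gpx2 were not called, the first 2 with limma adjusted p of 0.892 and 0.362. The members' median was -0.58, against 0.69 over all genes. With median ratio scaling 17.9% of all genes were higher and 6.59% lower, and with quantile normalization 8.49% and 9.06%, the median of all genes moving by -0.27 and -0.72. Erythroid genes summed to 193 to 554 TPM in GL, and the part of blood cells in the GL levels was not tested.

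Neighbouring segments were compared in 14 pairs in the same way. Between PTS1 and PTS2, 5 members were called (9.57% of all genes): Gpx3 and Gpx7 were higher in PTS1, and Gclc, Gclm and Ggt1 were lower. The Gpx7 call, at levels of 1.75 to 2.79 TPM in PTS1 and 0.165 to 0.74 TPM in PTS2, was lost with a pseudocount of 5, at 0.42. Between PTS2 and PTS3, 2 members were higher in PTS2, Gpx1 and Ggt1, where 3.94% of genes were, and 1.99% with quantile normalization. The count was 1 without PTS3 mouse 2 (Ggt1 lost) and 2 or 3 without any other mouse. With the replicate block it was also 1. At the end of the proximal tubule 9 members differed between PTS3 and DTL1, a pair that differed in 65.5% of genes, and 6 between PTS3 and DTL2, where 40% of genes did. These background shares depended on the scaling. Between PTS3 and DTL1, 3.75% of genes were higher in PTS3 and 61.8% lower, which became 10.3% and 42.5% with median ratio scaling and 13.7% and 13.3% with quantile normalization. Between PTS3 and DTL2, 3.85% were higher and 36.2% lower, which became 9.46% and 19.9% with the first and 9.61% and 10.3% with the second. In the second pair Gpx3, Gclc, Gclm and Ggt1 were higher in PTS3 and Gpx7 and Gpx8 were lower. The Gpx7 call there was lost without DTL2 mouse 2, at -0.83, with a pseudocount of 5, at -0.39, with median ratio scaling, at -0.87, and with quantile normalization, at -0.04 (limma adjusted p = 0.942). The Gpx6 call between PTS3 and DTL1 was lost without DTL1 mouse 3, at -0.65, with a pseudocount of 5, at -0.41, with median ratio scaling, at -0.93, and with quantile normalization, at -0.14 (limma adjusted p = 0.742). The Gpx2 call of that pair was lost with a pseudocount of 5, at -0.84, and with quantile normalization, at -0.49. Endothelial marker sums were 62.1 to 132 TPM in PTS3 and 1018 to 1871 TPM in DTL2, and their part in these differences was not tested.

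In the thin limbs, 7 members differed between DTL1 and DTL2 (28.2% of genes; with quantile normalization 5.47% were higher in DTL1 and 7.01% lower, in place of 25.2% and 2.99%), with Gpx4 lower in DTL1 and Gpx2, Gpx3, Gpx7, Gpx8, Gclm and Ggt1 higher. The Ggt1 call was lost when any 1 of 4 mice was left out: DTL1 mice 1 and 5 and DTL2 mice 2 and 3, at limma adjusted p from 0.0577 to 0.112. It was also lost with a pseudocount of 0.1 (log2 difference 1.28, SE 0.64, limma adjusted p = 0.111). The Gpx2 call was lost with a pseudocount of 5, at 0.73, and with quantile normalization, at 0.48. Proximal marker sums were 1755 to 5789 TPM in DTL1 and 193 to 795 TPM in DTL2, endothelial sums 2764 to 3652 and 1018 to 1871 TPM, and the part of either in the differences was not tested. Gclc and Ggt1 were the 2 members higher in DTL2 than in DTL3 (3.5% of genes were). Ggt1 was 99.2, 48.2 and 62.8 TPM in DTL2 and 6.28, 0.26 and 4.21 TPM in DTL3, with no overlap. Proximal marker sums were 795, 193 and 202 TPM in the same DTL2 mice, the order of their Ggt1, and 25.6 to 57.2 TPM in DTL3, and their part was not tested. Higher in DTL3 than in ATL were 5 members (11.8% of genes were): Gpx1, Gclm, Gpx8, Gclc and Gpx7. The share of all genes was 6.65% with median ratio scaling and 5.84% with quantile normalization. The Gclc call was lost without ATL mouse 6, at 0.89, and in 5 of 10 other alternatives, at 0.76 to 0.96. The Gpx7 call was lost without DTL3 mouse 3, ATL mouse 2 or ATL mouse 3, at 0.88 and 0.89, with a pseudocount of 5, at 0.34, with median ratio scaling, at 0.76, and with quantile normalization, at 0.44 (limma adjusted p = 0.226). The Gpx8 call was lost with median ratio scaling, at 0.81. Endothelial marker sums were 633 to 1589 TPM in DTL3 and 149 to 239 TPM in ATL, and their part was not tested. From ATL to MTAL, 3 members were called (28.1% of genes), Gpx6 and Ggt1 higher in MTAL and Gpx3 lower. With median ratio scaling 7 were called, Gclc, Gpx8, Gclm and Gpx1 being added as higher in MTAL, at differences of -1.34, -1.07, -1.04 and -1.03, where 16.4% of all genes were higher in ATL and 7.85% lower. With quantile normalization these shares were 7.53% and 9.85%. In ATL mice 2, 3, 4 and 6, Gpx3 was 16.8, 20.9, 39.4 and 52.8 TPM beside proximal marker sums of 10.5, 7.98, 90.9 and 57.1 TPM. Proximal sums were 3.04 to 23.9 TPM in MTAL, and their part in the Gpx3 difference was not tested.

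From the thick limb onward up to CCD, between 1.12% and 5.22% of all genes were called in either direction between neighbours. Gpx3, Gclc and Ggt1 were lower in MTAL than in CTAL, 3 of 10 members against 2.57% of all genes. Between CTAL and DCT 4 members differed, where 4.35% of genes did: Gpx6 and Ggt1 were lower in DCT, and Gpx3 and Gclc were higher. Gpx6 and Ggt1 were lower again in CNT than in DCT (2 members, 1.52% of genes). Gpx3 and Gpx6 were the 2 members higher in CNT than in CCD, as 0.438% of genes were, and the count was 1 without CNT mouse 1 or CNT mouse 3. Gpx3 and Ggt1 were higher in CCD than in OMCD (2 members), where 1.73% of genes were, and 2.66% with quantile normalization. Proximal marker sums were 129 to 626 TPM in CCD and 21.6 to 34.6 TPM in OMCD, and their part was not tested. Between OMCD and IMCD 3 members were called, where 18.6% of genes were. Gpx1 and Gclm were higher in IMCD and Gpx7 was higher in OMCD. With quantile normalization 6.37% of genes were higher in OMCD and 7.5% lower, in place of 15.2% and 3.4%. The count was 5 without IMCD mouse 1, the mouse with the lowest endothelial sum. Intercalated cell genes summed to 2419 to 3287 TPM in OMCD and 0.333 to 4.79 TPM in IMCD, and thick limb genes to 756 to 1841 and 0.337 to 0.543 TPM. Of the thick limb genes, Umod was 0.35 to 5.64 TPM and Slc12a1 0.305 to 0.57 TPM in OMCD, so Cldn16 and Kcnj1 made up nearly all of that sum. Thin limb genes summed to 114 to 142 TPM in OMCD and 1406 to 2695 TPM in IMCD, but Aqp1, one of them, was 0.04 to 2.03 TPM in IMCD. These sums therefore do not by themselves show thick or thin limb cells. Endothelial genes summed to 364 to 486 TPM in OMCD and 21 to 302 TPM in IMCD. The part of other cell types in the differences was not tested. The median absolute difference over these 6 pairs was 0.24 to 0.78 for the members and 0.08 to 0.44 for all genes, and CCD minus OMCD was the one pair with the members below all genes, 0.33 against 0.37.

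**Figure D4:**
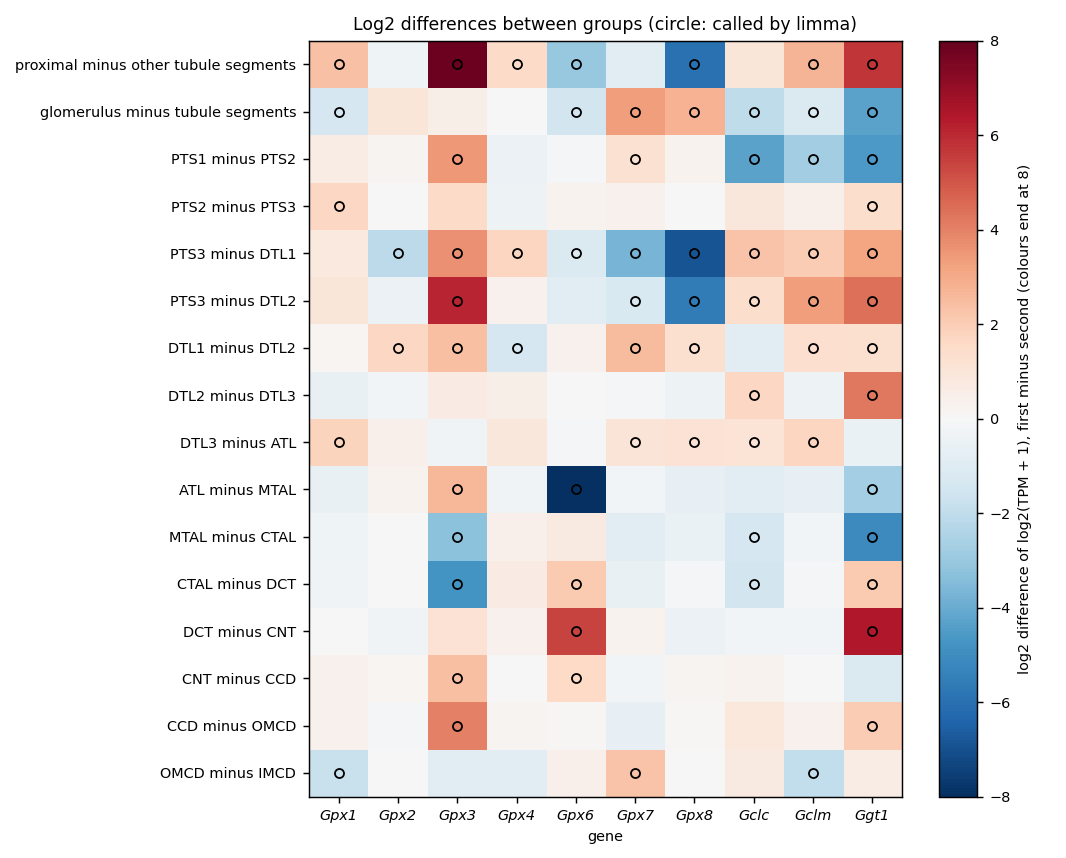
Log2 differences of the 10 genes in the 16 comparisons (rows, first group minus second); red is higher in the first, blue is lower, colours end at 8, and circles mark genes called by limma. Gpx3 and Ggt1 carry circles in most rows, Gpx2 in 2, and the largest single difference is that of Gpx6 between ATL and MTAL, at -9.46.

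A stricter test asked whether a member was higher in 1 group than in each of the other 14. The largest one-sided p of the 14 differences was adjusted over all genes, and the smallest difference, the margin, had to reach 1 log2 unit. Gpx3 in PTS1 was the one member that passed, with a margin of 3.46 (SE 0.55, limma adjusted p = 1.92e-05) over PTS2, and 0.544% of genes passed for PTS1. Ggt1 had a margin of 1.43 (SE 0.43, limma adjusted p = 0.16) in PTS2 over PTS3. For Gclc in PTS2 the margin was 0.92 (SE 0.26, limma adjusted p = 0.121), and it passed without PTS2 mouse 3, at 1.06, or mouse 5, at 1.08, the low pair. Gpx7 in GL, at 0.95 (SE 0.27, limma adjusted p = 0.0158) over DTL1, passed without GL mouse 2, at 1.03, DTL1 mouse 1, at 1.05, or DTL1 mouse 3, at 1.01. Gpx2 in DTL1 had a margin of 0.79 (SE 0.29, limma adjusted p = 0.0764) and passed without DTL1 mouse 3, at 1.24. Gpx1, Gclm, Gpx4, Gpx6 and Gpx8 had margins of 0.36 to 0.74 over the next group. Under quantile normalization the margin of Gpx4 in PTS3 was -0.08 and that of Gpx2 in DTL1 was -0.02, so these groups were then not the highest. The counts over the members ranged from 1 to 3 with 1 mouse left out.

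Other genes of the pathway were read from 5 lists of 63 genes, of which 61 were tested. In the proximal comparison 26 were higher (4.02% of all genes were), 3 were lower (19.8% of all genes) and 32 were not called, with a median of 0.82 against -0.41 over all genes. Among genes that make, recycle or break down glutathione, 8 of 13 were higher, among them Gss (log2 difference 3.60, SE 0.06, limma adjusted p = 2.34e-39) and Gsr (log2 difference 1.11, SE 0.11, limma adjusted p = 1.03e-11). Of the 10 genes for cysteine and glutamate supply, 6 were higher. Slc3a1 and Slc7a9 encode the 2 chains of the cystine transporter of the brush border; Slc3a1 was 1345 ± 118 TPM in PTS2 (SD, n = 5) and differed by 8.07 (SE 0.15), and Slc7a9 was 496 ± 55.4 TPM in PTS1 (SD, n = 3) and differed by 6.16 (SE 0.13). Cbs, an enzyme on the route from methionine to cysteine, was 519 ± 47.1 TPM in PTS2 (SD, n = 5) and 122 ± 26 TPM in PTS1 (SD, n = 3). Slc3a1 and Cbs were thus highest in the segment with the most Gclc, Gclm, Gss and Ggt1, and Slc7a9 in the segment with the most Gpx3.

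Of the 21 thioredoxin, peroxiredoxin and other antioxidant genes 6 were higher in the proximal segments and the other 15 were not called. Sod3, the secreted superoxide dismutase, led them with 947 ± 79 TPM in PTS2 (SD, n = 5). Called higher were also 3 of the 8 genes of NADPH supply and of the Nrf2 system, and 3 of the 9 genes of selenoprotein making and selenium supply. Among the pathway genes lower in the proximal segments were Nfe2l2 (log2 difference -2.72, SE 0.08, limma adjusted p = 3.72e-31) and Chac1 (log2 difference -1.29, SE 0.28, limma adjusted p = 9.26e-05). Nfe2l2 encodes Nrf2, the transcription factor known to drive Gclc and Gclm in many cells. It was 30.8 ± 4.1 TPM in PTS2 (SD, n = 5), where Gclc and Gclm were highest, and 356 ± 39.4 TPM in CCD (SD, n = 5). Chac1 encodes an enzyme that degrades glutathione inside the cell. It was 11.9 ± 14.7 TPM in DTL3 (SD, n = 3) and 7.2 ± 7.55 TPM in ATL (SD, n = 4), each SD above its mean. In DTL2, CTAL, DCT and OMCD the means were 0.327, 0.718, 0.175 and 0.586 TPM, beside 0.065, 0.113 and 0.227 TPM in PTS1, PTS2 and PTS3. In GL, 7 of the 61 genes were higher than in the tubule, where 31.6% of all genes were, and 20 were lower, where 3.94% were. Between PTS1 and PTS2, 6 of the 61 were higher in PTS1, where 4.46% of all genes were, and 20 were lower, where 5.1% were, the direction taken by Gclc, Gclm and Ggt1. With median ratio scaling 8.47% of all genes were higher in PTS1 and 5.24% lower.

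Promoter sequence was read for the members, with Gclc, Gclm and Ggt1 in view, which share PTS2 as their highest group. RefSeq windows on GRCm38.p6, from 250 bases before to 50 after each annotated start, were matched for 9 of the 10 members, and Gclc had no window. The core of the antioxidant response element, TGACNNNGC, the known binding motif of Nrf2, was searched on both strands. It was found in the window of Gclm and in 3 of the 4 windows of Ggt1, in none of the windows of the other 7 members (0 windows), and in 12.4% of all 32851 windows. The 250 bases before the start are shown for the windows with a match upstream, all on the plus strand, with the match in capitals; the first 2 hold the motif on the minus strand, so its reverse complement is printed.
Gclm (chr3:122245307-122245556, match from base -134): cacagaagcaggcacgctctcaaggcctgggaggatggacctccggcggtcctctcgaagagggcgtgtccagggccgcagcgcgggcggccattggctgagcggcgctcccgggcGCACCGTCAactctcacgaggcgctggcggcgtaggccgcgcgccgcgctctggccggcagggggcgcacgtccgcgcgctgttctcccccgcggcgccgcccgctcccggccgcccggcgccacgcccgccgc
Ggt1 (chr10:75568412-75568661, match from base -36): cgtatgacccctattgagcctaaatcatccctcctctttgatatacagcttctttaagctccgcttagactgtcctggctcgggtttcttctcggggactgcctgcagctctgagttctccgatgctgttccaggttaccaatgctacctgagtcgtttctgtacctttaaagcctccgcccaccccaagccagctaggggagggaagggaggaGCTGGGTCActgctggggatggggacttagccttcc
Ggt1 (chr10:75571310-75571559, match from base -83): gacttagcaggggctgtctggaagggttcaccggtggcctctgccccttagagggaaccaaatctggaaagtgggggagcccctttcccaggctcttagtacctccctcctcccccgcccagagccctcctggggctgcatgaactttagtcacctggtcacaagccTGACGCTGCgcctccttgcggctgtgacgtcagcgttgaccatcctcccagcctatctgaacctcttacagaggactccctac
A match is a description of these letters and not evidence of binding.

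For each member with a group mean of at least 10 TPM, the genes with the most similar profile were looked up by Pearson's r of the group means of log2(TPM + 1) over the 15 groups, among 12066 genes that reach 10 TPM in a group; the groups share libraries between genes, and no test is attached. Gpx8 had the closest partner, Slc44a2 (r = 0.984), followed by Slx1b and Nectin2. Gpx6 was most like Perm1 (r = 0.981), Spink4 and Lrrc66, whose highest group was MTAL, MTAL and CTAL. Gclm was most like Gatad1 (r = 0.952), Mogat1 and Adtrp, all highest in PTS2 or PTS3. Gpx3 was most like Afmid (r = 0.926), Igfals and Akr1a1, all highest in PTS1, and Gpx7 was most like Gch1 (r = 0.922), Msx1 and Flrt2, all highest in GL. Ggt1 was most like Fah (r = 0.912), Mfsd4b1 and Pipox, all highest in PTS2. The closest partner of Gpx1 was Slc37a4 (r = 0.897), of Gpx4 Tmem97 (r = 0.870) and of Gclc Serp1 (r = 0.864).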

How the data were processed

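RNA from 93 microdissected samples was analysed, from 53 mice when each combination of mouse number and segment is counted as 1 mouse. The 3 single-cell samples of the series were not analysed here. The values are TPM as deposited by the authors in 1 table, and each column sums to 999999 or more, within rounding of the same total. The submitters' processing notes name STAR 2.5.4a and RSEM 1.3.0; the genome build and annotation behind the table are not given in the sources used here. TPM keeps no depth, so no counting error can be given. The p-values rest on the spread between mice, estimated for each gene over all 15 groups together. The SE of a pair of groups therefore also carries the spread of the other groups, and can be wide where the pair itself is tight. The authors' 14 mean columns were not used. Samples were grouped by their titles, 1 PTS2 column, whose combination of mouse 2 and piece b stands in no PTS2 title, was assigned to the group only and kept as a mouse of its own, and log2(TPM + 1) was averaged over the pieces of a mouse and segment.

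Genes at 1 TPM or more in 3 mice or more (33793 of 54532) were fitted with limma 3.58.1 (R 4.3.3; trend, 38 residual degrees of freedom) over the 15 groups. 16 contrasts were tested with Benjamini-Hochberg adjustment over all genes of a contrast, and a gene was called at an adjusted p under 0.05 with a difference of at least 1. The comparisons share groups, so their calls are not independent. The procedure was tested on simulated data with 200 of 33793 genes changed by 2 log2 units, of which 86% to 99% were recovered with 1 to 13 others called. Python 3.11.15 with pandas 2.3.3, scipy 1.17.1 and matplotlib 3.10.9 was used for descriptions and figures.

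Named in the text are the 10 members, Gss and Gsr, up to 4 pathway genes of each direction with the largest proximal difference and a group mean of at least 10 TPM, and the 3 genes most like each member, passing over unnamed, ribosomal, mitochondrial and pseudogene symbols. One of the pathway genes the rule names is not reported here. Gpx5 was named after its values were seen. The members, lists and tests were chosen with earlier results of these data known. Of 63 pathway genes, Dpep2 was left out because 2 identifiers carry its symbol, and Dpep3 because it did not reach the minimum. Alternatives were pseudocounts of 0.1 and 5, other filters, median ratio and quantile scaling, the order of averaging, a replicate block, and leaving out mice.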

Additional observations from a re-analysis of the deposited data

Results flagged for a closer look

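In groups of 4 or 5 mice, 4 of the 47 gene and group combinations with more than 1 mouse above 0 held 1 mouse standing far from the others by Dixon's test, which chance gives in about 1 of 20. Gpx1 was 677 TPM in CTAL mouse 3, where the other 4 mice held 534 to 575 TPM, and 665 TPM in CCD mouse 3, where the others held 506 to 537 TPM. Gclc was 16.3 TPM in ATL mouse 6, against 27.3 to 28.8 TPM in the other 3. Gpx7 was 2.62 TPM in CTAL mouse 4, against 1.8 to 1.87 TPM. Gpx2 was 1.1 TPM in ATL mouse 6 and 0.005 TPM in PTS2 mouse 5, with all other mice of those groups at 0; any value above 0 stands apart there, so these 2 are not counted above. Of these mice, ATL mouse 6 was the one whose removal ended a call, that of Gclc between DTL3 and ATL.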

How the results depend on the processing

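No called difference reversed under the alternatives run; 2 uncalled margins of the highest group did under quantile normalization, Gpx4 in PTS3 at -0.08 and Gpx2 in DTL1 at -0.02. The count of members called moved by more than 1.5 times in these cases. CNT minus CCD gave 0 members with a pseudocount of 0.1 and 1 with a pseudocount of 5, where 2 were called. DTL3 minus ATL gave 3 with a pseudocount of 5, 2 with median ratio scaling and 3 with quantile normalization, where 5 were called. CCD minus OMCD gave 1 with a pseudocount of 5, and ATL minus MTAL gave 7 with median ratio scaling against 3. PTS2 minus PTS3 gave 1 with the replicate block, where 2 were called. The count of members highest in 1 group was 2 with a pseudocount of 5 (Ggt1 in PTS2 added) and 2 with quantile normalization (Gpx7 in GL added). With 1 mouse left out the counts ranged from 1 to 3 for PTS2 minus PTS3, 1 to 2 for CNT minus CCD, 3 to 5 for OMCD minus IMCD and 1 to 3 for the highest group. For the 69 called differences and the 10 margins of the highest group, 4187 values were computed with 1 mouse left out: 4167 kept their direction and side of the threshold, 14 lost a call and 6 margins gained one. Calls gained by uncalled differences are not among these values and appear only in the counts of members.

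Mouse numbers were not taken to pair the samples. Of 290 pairs of mice with the same number in different groups 19 had a correlation of deviations over 0.1, against 31 of 968 pairs with different numbers, and both medians were 0. The share over 0.1 was thus higher among pairs with the same number, and these counts do not settle whether animals were shared. The tests treat the 53 mice as independent. With the replicate block, PTS2 minus PTS3 gave 1 member, Ggt1 being at 1.23 with a limma adjusted p of 0.0614, Gclc in DTL3 minus ATL was at 0.91, and 77 of 79 results kept their call. A pseudocount of 0.1 ended 6 calls, one of 5 ended 9, median ratio scaling ended 5 and quantile normalization 6, most of them of Gpx2, Gpx6 and Gpx7; Gpx6 in CTAL minus DCT was 2.08 with a limma adjusted p of 0.119 at a pseudocount of 0.1. Depth is unknown, so its effect on the low levels was not measured. Between neighbours the median of all genes moved most in PTS3 minus DTL1, by 0.52 with median ratio scaling and 1.32 with quantile normalization, and by 0.03 or less from MTAL to CCD.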
